A study of Mus musculus with 2 samples.

Results

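The genes described here encode the enzymes and carriers of mitochondrial and peroxisomal fatty acid oxidation, the electron transfer flavoprotein, enzymes of ketone body metabolism and the nuclear receptor PPARalpha. They were chosen by gene symbol, 34 of the 35129 gene symbols in the deposited tables. A row under its own symbol was found for 33 of them, and Eci1 was read from the row of its older symbol Dci. RNA sequencing gave transcript levels in C57BL/6 mouse primary hepatocytes, that is liver parenchymal cells taken into culture. Those of the Ad-KLF14 group received adenovirus made to express KLF14, a zinc finger transcription factor, and those of the Ad-GFP group a control adenovirus labelled GFP. The design text calls the control virus an empty vector. Both groups are thus cultured, virus-infected hepatocytes of the same strain, and no label gives the age or sex of the mice, the virus dose or the time after infection. With 1 library in each group and no replicates, the conditions could not be tested against each other, and the differences below describe these 2 libraries only. The design text speaks of triplicates, and no label says whether a table pools several cultures.

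Fatty acids enter the mitochondrial matrix as carnitine esters and are shortened there in a repeated spiral of 4 reactions, namely dehydrogenation, hydration, a second dehydrogenation and thiolysis. Flavoproteins pass the electrons of the first step to the respiratory chain, peroxisomes shorten very long and branched acyl chains with a parallel set of enzymes, and the liver turns much of the acetyl-CoA into ketone bodies. In fasting liver PPARalpha, a ligand-activated receptor for fatty acids, raises transcription of many of these genes.

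The values are FPKM, a read density scaled for gene length and library depth, so that levels of different genes can be set side by side. Whole reads were inferred from the steps of the FPKM values, with totals of 11151711 for Ad-KLF14 and 11311344 for Ad-GFP that rest on a best match to reference gene lengths, and the reads of a single gene are the smallest numbers that match. For a gene model of 2000 bases, 3 reads correspond to 0.135 FPKM with Ad-KLF14 and to 0.133 FPKM with Ad-GFP. Klf14 itself stood at 13164 FPKM with Ad-KLF14 (1.95% of the reads) and 0.298 FPKM with Ad-GFP, and reads of the insert were not told apart from those of the mouse gene. All 10 hepatocyte markers examined were measured, with a summed level of 4919 FPKM with Ad-KLF14 and 5903 FPKM with Ad-GFP. Albumin (Alb) made up 4172 FPKM of the sum with Ad-KLF14 and 5115 FPKM with Ad-GFP. The summed level of 12 macrophage markers was 227 FPKM with Ad-KLF14 and 154 FPKM with Ad-GFP, none of them at 0. Cd68 alone held 160 FPKM with Ad-KLF14 and 71.1 FPKM with Ad-GFP, and the other 11 summed to 66.4 FPKM with Ad-KLF14 and 82.9 FPKM with Ad-GFP, the opposite direction. That of 7 bile duct markers was 235 FPKM with Ad-KLF14 and 795 FPKM with Ad-GFP, with Krt7 and Cftr at 0 in both libraries. Spp1 made up 191 FPKM of it with Ad-KLF14 and 681 FPKM with Ad-GFP. The 8 endothelial markers summed to 8.57 FPKM with Ad-KLF14 and 10.2 FPKM with Ad-GFP. The 9 stellate cell and fibroblast markers summed to 2.58 FPKM with Ad-KLF14 and 3.65 FPKM with Ad-GFP, with Des and Lrat at 0 in the Ad-KLF14 library. The 5 muscle markers summed to 6.85 FPKM with Ad-KLF14 and 13.6 FPKM with Ad-GFP, with Ckm, Myh7 and Mb at 0 in both libraries. The 5 adipocyte markers summed to 2.56 FPKM with Ad-KLF14 and 2.61 FPKM with Ad-GFP, with Adipoq and Cfd at 0 in both and Plin1 at 0 with Ad-GFP. By the mean of both libraries the highest of these were Flt4 for endothelium (2.04 FPKM with Ad-KLF14 and 5.03 FPKM with Ad-GFP, while the other 7 summed to 6.53 FPKM with Ad-KLF14 and 5.22 FPKM with Ad-GFP), Dcn for stellate cells (2.14 FPKM with Ad-KLF14 and 2.72 FPKM with Ad-GFP), Tnnt2 for muscle (6.04 FPKM with Ad-KLF14 and 13.0 FPKM with Ad-GFP) and Fabp4 for adipocytes (1.68 FPKM with Ad-KLF14 and 2.34 FPKM with Ad-GFP). Without Tnnt2, the other 4 muscle markers summed to 0.813 FPKM with Ad-KLF14 and 0.617 FPKM with Ad-GFP. Without Fabp4, the other 4 adipocyte markers summed to 0.881 FPKM with Ad-KLF14 and 0.269 FPKM with Ad-GFP. Both of these low sums went the opposite way to the highest gene. Without Dcn, the other 8 stellate cell and fibroblast markers summed to 0.440 FPKM with Ad-KLF14 and 0.930 FPKM with Ad-GFP, the same direction as Dcn. The part of other cell types in the differences below was not tested. In such bulk samples, fewer cells of a type and less RNA per cell cannot be told apart.

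The pathway was expressed in both libraries and showed no common direction. Its members ranged between 0.575 and 97.9 FPKM with Ad-KLF14 and between 0.510 and 70.4 FPKM with Ad-GFP, and 15 stood at 20 FPKM or more in both. A log2 ratio is the difference of log2(FPKM + 1), Ad-KLF14 less Ad-GFP, and is too small for low genes because of the pseudocount. The filter asked for a mean of 1 FPKM over both libraries. It left 33 of the 34 members (Acot1 did not pass) and 12419 genes in all. The median level of these members was 17.1 FPKM with Ad-KLF14 and 21.4 FPKM with Ad-GFP. Over all 12419 genes it was 11.9 FPKM with Ad-KLF14 and 12.5 FPKM with Ad-GFP. Of the 33 members 1 (3.03%) was at least 2-fold higher with Ad-KLF14, beside 6.37% of all genes. At least 2-fold lower were 2 (6.06%), beside 8.99% of all genes. Counts of 1 and 2 genes lie too near these shares to set the members apart. The gene at least 2-fold higher was Hadhb, and those at least 2-fold lower were Acads and Hadh.

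At 1.5-fold the share of members lower was above that of all genes, and the share higher was below it. These differences rest on 9 and 3 members and were not tested. At least 1.5-fold lower were 9 members (27.3%), beside 20.9% of all genes, and at least 1.5-fold higher were 3 (9.09%), beside 16.7%. The median log2 ratio of the 33 members was −0.27, with 14 above 0 and 19 below, and it was −0.14 with a pseudocount of 5 FPKM or a filter at 5 FPKM. Over all 12419 genes the median was −0.03, with 48.3% above 0. The standard deviation across members was 0.66, and across all genes without Klf14 it was 0.73. Summed over the 33 members, the level was 804 FPKM with Ad-KLF14 and 883 FPKM with Ad-GFP. The member just inside the threshold was Hadhb, 2.29-fold higher with the pseudocount, and the one just outside was Acot2, 1.997-fold lower.

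**Figure D1:**
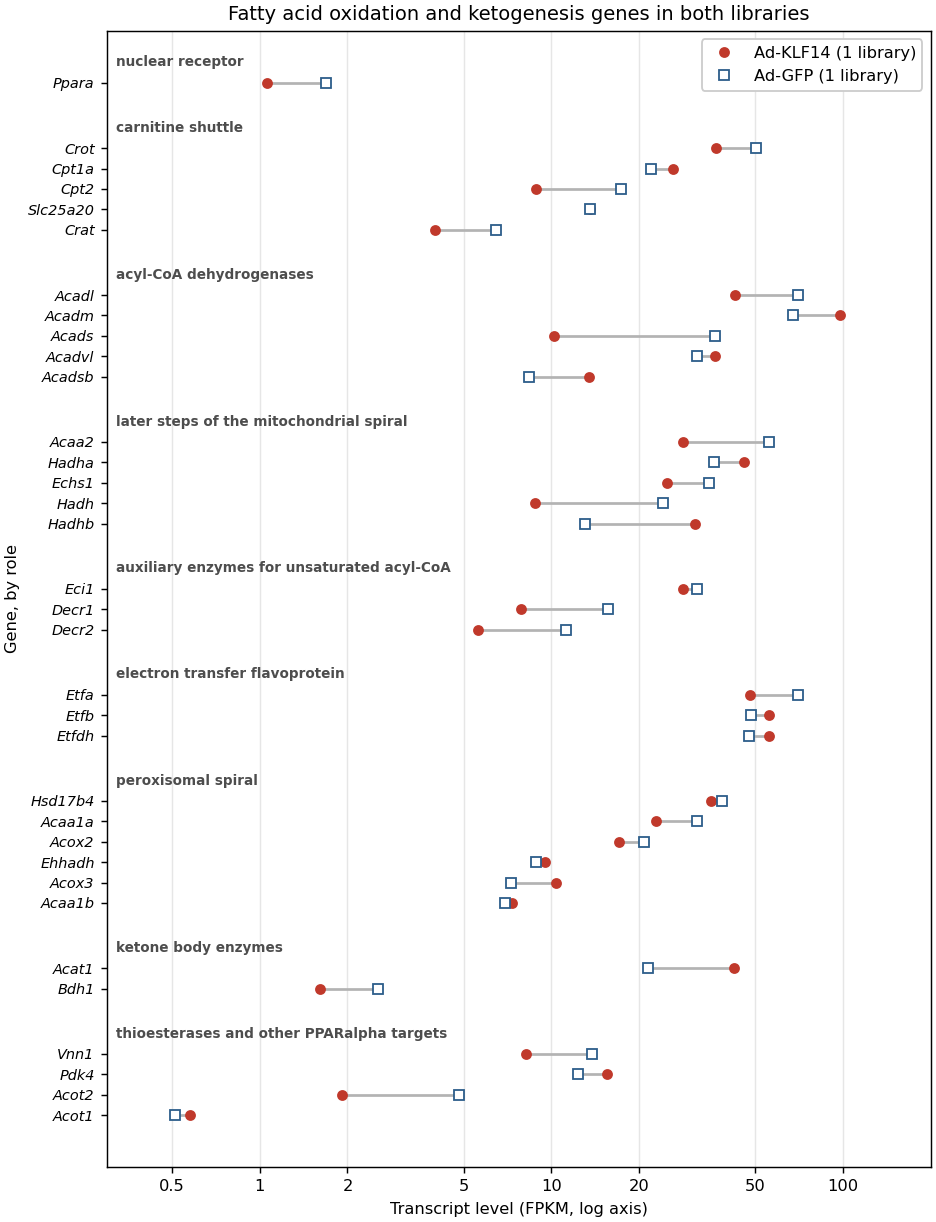
Transcript level in FPKM (log axis) of each of the 34 genes, grouped by role, with Ad-KLF14 as filled circles and Ad-GFP as open squares, 1 library each. The longest gap between the symbols is that of Acads (10.2 FPKM with Ad-KLF14 and 36.6 FPKM with Ad-GFP), and Hadhb has the widest with Ad-KLF14 on the right (31.1 FPKM with Ad-KLF14 and 13.0 FPKM with Ad-GFP).

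Each ratio has a 95% counting interval, taken by the exact Clopper-Pearson method from the gene's reads and the library totals. The interval describes counting error and leaves out differences between cultures. As the reads are the smallest that match, an interval may be too wide. In 4 members (Cpt2, Acadsb, Vnn1 and Hsd17b4) the length implied by the reads was nearest to a whole fraction of the reference transcript. By counting error alone, 11 members (33.3%) lay above a ratio of 1 and 17 (51.5%) below it, and the interval of the other 5 kept members held 1. Among all kept genes with reads in both libraries, 33.7% lay above and 37.5% below, so an interval without 1 was common among all genes. The share above was near that of all genes. The share below was larger in the members, a difference that was not tested. The ratios named from here on are FPKM ratios without the pseudocount.

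**Figure D2:**
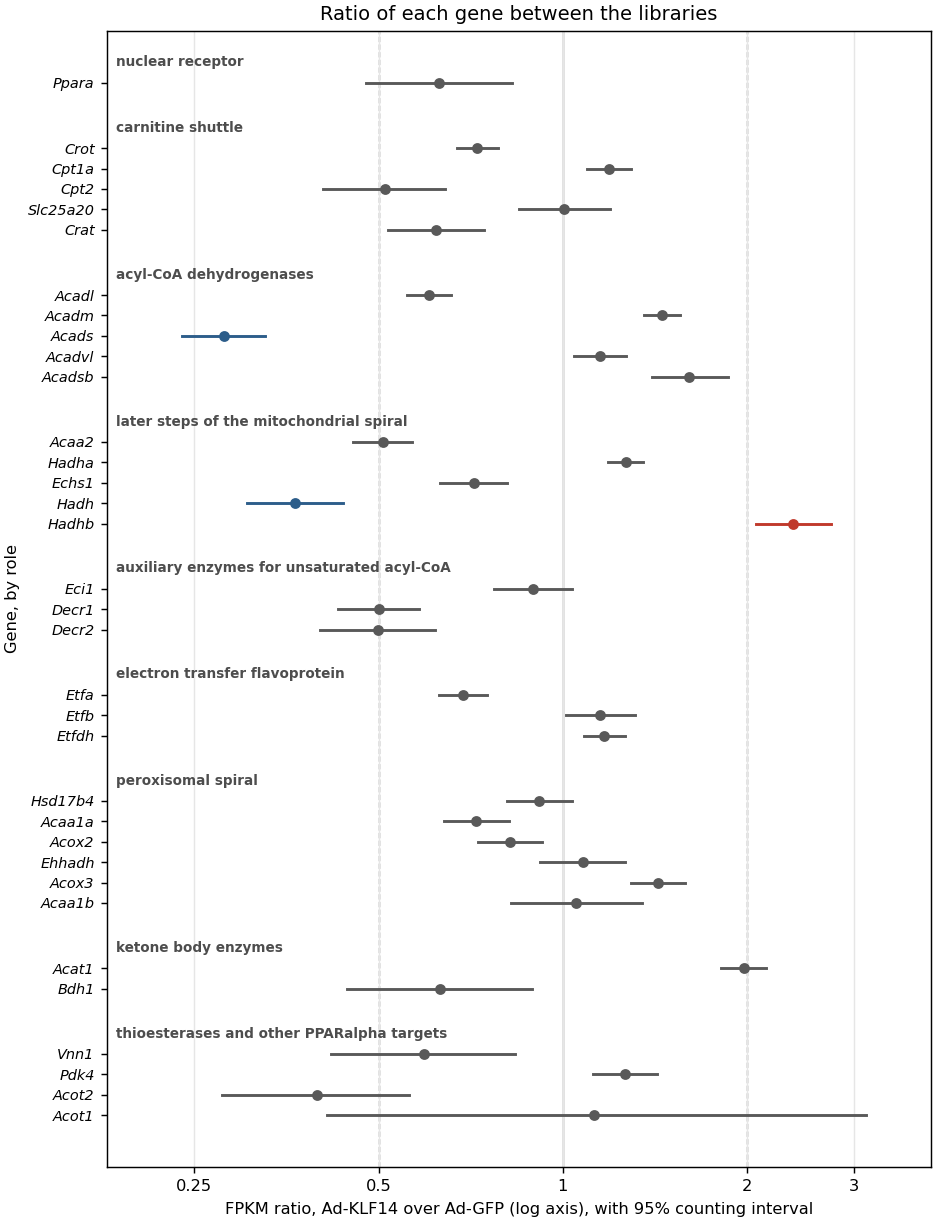
FPKM ratio of each gene, Ad-KLF14 over Ad-GFP (log axis), with its 95% counting interval as a bar; red marks the gene at least 2-fold higher and blue the genes at least 2-fold lower on log2(FPKM + 1), and dashed lines mark ratios of 0.5 and 2. Hadhb lies at 2.39, Hadh at 0.365 and Acads at 0.279, while Acot2 at 0.397 is grey because the pseudocount brings it just under 2-fold.

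Ppara, the receptor that controls much of the pathway, was low in both libraries, at 1.06 FPKM with Ad-KLF14 and 1.69 FPKM with Ad-GFP from at least 88 reads with Ad-KLF14 and 142 with Ad-GFP. The Ad-KLF14 value was 1.59-fold lower (counting interval 1.21 to 2.10). With the pseudocount its log2 ratio was −0.38, under 1.5-fold.

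In the carnitine shuttle, which carries acyl groups across membranes as carnitine esters, the outer and inner mitochondrial transferases differed in direction. Cpt1a, the rate-limiting entry enzyme of the outer membrane, was at 26.1 FPKM with Ad-KLF14 and 21.9 FPKM with Ad-GFP (ratio 1.19, interval 1.10 to 1.29). Cpt2, which turns the carnitine ester back into acyl-CoA inside, was at 8.85 FPKM with Ad-KLF14 and 17.3 FPKM with Ad-GFP (1.95-fold lower, interval 1.56 to 2.47). Within a library, the level of Cpt2 over that of Cpt1a was therefore 0.339 with Ad-KLF14 and 0.790 with Ad-GFP. The translocase gene Slc25a20, which exchanges acylcarnitine for carnitine across the inner membrane, was at 13.6 FPKM with Ad-KLF14 and 13.5 FPKM with Ad-GFP (ratio 1.01, interval 0.848 to 1.2). Crot, the peroxisomal octanoyl transferase that readies shortened chains for export, was at 36.6 FPKM with Ad-KLF14 and 50.4 FPKM with Ad-GFP (1.38-fold lower, interval 1.28 to 1.49). Crat, which transfers acetyl groups to carnitine, was at 4.0 FPKM with Ad-KLF14 and 6.44 FPKM with Ad-GFP (1.61-fold lower, interval 1.34 to 1.93). Of the 5 genes none was 2-fold apart with the pseudocount.

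The acyl-CoA dehydrogenases, which catalyse the first step of the spiral and divide the substrates by chain length, held the largest difference of the pathway and went in both directions. Acads, the short-chain enzyme, was at 10.2 FPKM with Ad-KLF14 and 36.6 FPKM with Ad-GFP, from at least 209 reads with Ad-KLF14 and 760 with Ad-GFP, a 3.59-fold lower level (interval 3.07 to 4.20). Acadl, the long-chain enzyme, was also lower, at 42.5 FPKM with Ad-KLF14 and 70.4 FPKM with Ad-GFP (1.66-fold, interval 1.52 to 1.80). Acadm, the medium-chain enzyme, was higher, at 97.9 FPKM with Ad-KLF14 and 67.3 FPKM with Ad-GFP (1.46-fold, interval 1.36 to 1.56). Acadm thus had the highest level of all 34 genes with Ad-KLF14, a place that Acadl held with Ad-GFP. The level of Acads over that of Acadm was 0.104 with Ad-KLF14 and 0.544 with Ad-GFP, and that of Acadl over Acadm was 0.434 with Ad-KLF14 and 1.05 with Ad-GFP. Acadsb, which acts on short branched chains from isoleucine breakdown, was at 13.5 FPKM with Ad-KLF14 and 8.37 FPKM with Ad-GFP (1.61-fold higher, interval 1.40 to 1.86). Acadvl, the very-long-chain enzyme of the inner membrane, was at 36.4 FPKM with Ad-KLF14 and 31.6 FPKM with Ad-GFP (ratio 1.15, interval 1.04 to 1.27). The end of Acadvl overlaps Dvl2 on the opposite strand, with 24.0% of its 50-base stretches found in Dvl2 transcripts. Dvl2 was at 28.5 FPKM with Ad-KLF14 and 14.5 FPKM with Ad-GFP. Whether the counting used strand is not given in the sources used here, so the part of Dvl2 reads in the Acadvl value was not tested.

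The promoter window of Acads is shown because this gene had the largest difference among the members. It covers 250 bases before the start site and 50 after it, from RefSeq on GRCm38.p6, at chr5:115119297-115119596 on the minus strand. Letters in capitals are matches to the GC box GGGCGG or to the box CACCC, both of them sequences that KLF and SP zinc finger factors are known to bind, on either strand. There was 1 GC box and 1 CACCC box.
Acads: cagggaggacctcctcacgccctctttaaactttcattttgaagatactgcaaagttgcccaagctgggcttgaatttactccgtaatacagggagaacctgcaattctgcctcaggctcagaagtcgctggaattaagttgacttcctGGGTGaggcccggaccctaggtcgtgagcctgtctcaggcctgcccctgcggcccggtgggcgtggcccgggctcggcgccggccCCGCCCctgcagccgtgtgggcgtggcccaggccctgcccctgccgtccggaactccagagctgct

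In the later steps of the mitochondrial spiral the genes went apart as well. Echs1, the short-chain enoyl-CoA hydratase, was at 24.9 FPKM with Ad-KLF14 and 34.8 FPKM with Ad-GFP (1.40-fold lower, interval 1.23 to 1.59). Hadh, the hydroxyacyl-CoA dehydrogenase for short and medium chains, was at 8.81 FPKM with Ad-KLF14 and 24.1 FPKM with Ad-GFP, from at least 169 reads with Ad-KLF14 and 469 with Ad-GFP (2.74-fold lower, interval 2.29 to 3.28). Acaa2, the thiolase of the matrix, was at 28.3 FPKM with Ad-KLF14 and 55.6 FPKM with Ad-GFP (1.97-fold lower, interval 1.76 to 2.20). The transcripts of all 3 of these matrix enzymes were lower with Ad-KLF14, and Hadh was lower by at least 2-fold. The promoter window of Hadh, the second gene at least 2-fold lower, lies at chr3:131272052-131272351 on the minus strand (RefSeq, GRCm38.p6) and held 4 GC boxes and 3 CACCC boxes, marked in capitals, some of which share bases.
Hadh: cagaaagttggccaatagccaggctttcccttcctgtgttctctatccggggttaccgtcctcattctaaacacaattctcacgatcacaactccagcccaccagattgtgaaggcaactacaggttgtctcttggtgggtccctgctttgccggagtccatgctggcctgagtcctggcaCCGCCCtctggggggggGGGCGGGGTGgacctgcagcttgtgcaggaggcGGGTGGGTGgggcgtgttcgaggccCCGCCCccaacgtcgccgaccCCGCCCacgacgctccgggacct

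The trifunctional protein is the complex of the inner membrane that carries out the last 3 steps for long chains. Transcript levels of both of its subunits were higher with Ad-KLF14, that of Hadhb with the uncertainty given below. Hadha encodes the alpha subunit with the hydratase and dehydrogenase activities, and Hadhb the beta subunit with the thiolase. Hadha was at 45.9 FPKM with Ad-KLF14 and 36.2 FPKM with Ad-GFP (1.27-fold higher, interval 1.19 to 1.36). Hadhb was at 31.1 FPKM with Ad-KLF14 and 13.0 FPKM with Ad-GFP, from at least 675 reads with Ad-KLF14 and 287 with Ad-GFP (2.39-fold higher, interval 2.07 to 2.75). The level of Hadhb over that of Hadha was 0.676 with Ad-KLF14 and 0.359 with Ad-GFP. A processed pseudogene, Gm13910, shares 61.5% of the 50-base stretches of the Hadhb transcript. It lies at chr2:108948806-108950233 on GRCm38 (GENCODE M21). It has a row of its own in the deposited tables, at 37.4 FPKM with Ad-KLF14 and 19.4 FPKM with Ad-GFP (ratio 1.93, interval 1.71 to 2.17). How reads that match both were counted is not given in the sources used here, so the Hadhb value is uncertain and the part of such reads in it was not tested.

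Hadha and Hadhb lie head to head on chromosome 5, with start sites 273 bases apart, at 30154980 on the minus strand and 30155253 on the plus strand (RefSeq, GRCm38.p6). Their promoter windows share 228 bases, and both are shown because Hadhb was the member at least 2-fold higher and Hadha is its partner in the complex. The Hadhb window is chr5:30155003-30155302 on the plus strand and held 4 GC boxes and 2 CACCC boxes. The Hadha window is chr5:30154931-30155230 on the minus strand and held 1 GC box and 2 CACCC boxes, again in capitals.
Hadhb: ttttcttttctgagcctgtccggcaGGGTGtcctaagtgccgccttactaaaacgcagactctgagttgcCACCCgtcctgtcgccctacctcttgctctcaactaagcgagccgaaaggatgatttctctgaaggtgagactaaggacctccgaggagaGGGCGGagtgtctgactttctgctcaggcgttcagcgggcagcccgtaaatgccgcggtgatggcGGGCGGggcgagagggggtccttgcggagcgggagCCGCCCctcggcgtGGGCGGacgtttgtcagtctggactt
Hadha: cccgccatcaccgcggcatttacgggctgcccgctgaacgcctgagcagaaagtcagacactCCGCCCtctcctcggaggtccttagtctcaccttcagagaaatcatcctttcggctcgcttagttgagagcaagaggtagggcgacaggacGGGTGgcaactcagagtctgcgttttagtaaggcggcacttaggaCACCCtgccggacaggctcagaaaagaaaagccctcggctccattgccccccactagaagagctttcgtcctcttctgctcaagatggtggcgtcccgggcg

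Promoter windows were found for 28 of the 34 members, 30 windows in all. Acox2 and Bdh1 each have a second window, and those of Hadha and Hadhb share 228 bases, so the windows are not all separate. Of these 70.0% held a GC box and 83.3% a CACCC box on either strand. Among the 11464 windows of other kept genes the shares were 63.0% and 62.4%, and among all 32851 windows 35.7% and 57.5%. The median GC content was 60.5% in windows of members and 60.7% in those of other kept genes. The differences in the shares of both boxes rest on these 30 windows and were not tested. The direct repeat that PPARalpha and its partner RXR bind, AGGTCANAGGTCA on either strand, was in none of the 30 windows and in 0.0396% of all windows. The looser form AGGNCANAGGNCA was again in none of the 30 and in 0.381% of all. Among windows of other kept genes the direct repeat was in 0.0349% and its looser form in 0.262%. With shares this low, none in 30 windows does not set the members apart. All of these motif letters are a description of windows of 300 bases and say nothing of binding by any factor.

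**Figure D3:**
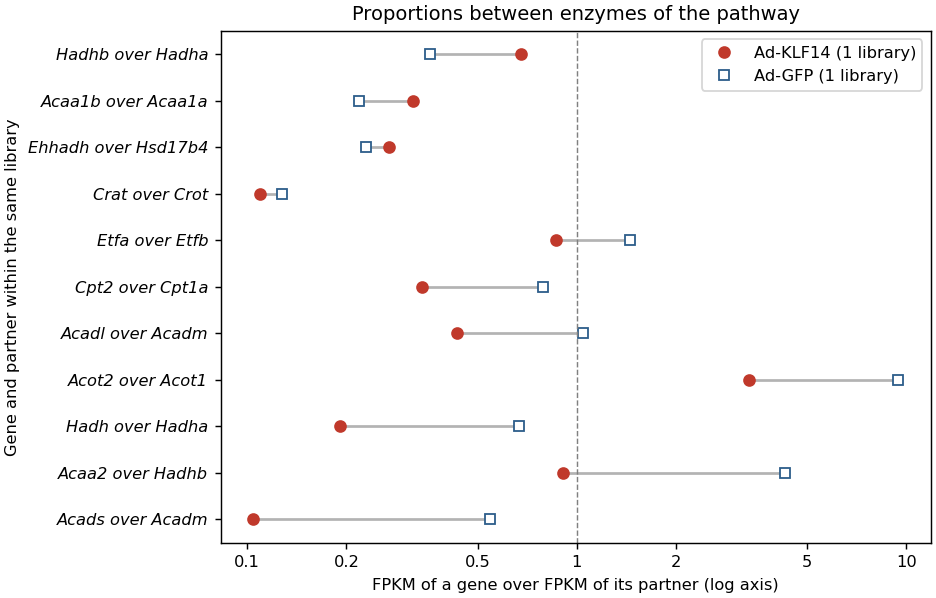
Level of a gene over that of a partner within the same library, as a ratio of FPKM values (log axis), with Ad-KLF14 as filled circles and Ad-GFP as open squares, 1 library each. Of the 11 pairs, all of them chosen by hand after values were seen, 3 had a higher ratio with Ad-KLF14, such as Hadhb over Hadha (0.676 with Ad-KLF14 and 0.359 with Ad-GFP), and 8 a lower one, such as Acads over Acadm (0.104 with Ad-KLF14 and 0.544 with Ad-GFP). The order within a pair was also set by hand, and reversing it reverses the direction. Some genes are in several pairs, so the counts of 3 and 8 describe the chosen pairs only.

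Of the 3 genes for enzymes that deal with the double bonds of unsaturated fatty acids, those of both reductases were lower with Ad-KLF14. Both were lower by more than the counting interval, and none of the 3 was 2-fold apart with the pseudocount. The mitochondrial dienoyl-CoA reductase gene Decr1 was at 7.85 FPKM with Ad-KLF14 and 15.7 FPKM with Ad-GFP (2.0-fold lower, interval 1.72 to 2.33). Its peroxisomal counterpart Decr2 was at 5.60 FPKM with Ad-KLF14 and 11.2 FPKM with Ad-GFP (2.0-fold lower, interval 1.61 to 2.49). The isomerase gene Eci1 was at 28.2 FPKM with Ad-KLF14 and 31.5 FPKM with Ad-GFP, and the interval of the ratio of 0.894 ran from 0.771 to 1.04. A difference in Eci1 was therefore not detectable at this depth.

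The electron transfer flavoprotein takes up electrons from the acyl-CoA dehydrogenases, and its oxidoreductase hands them to ubiquinone. All 3 genes were among the 7 highest of the pathway in both libraries. Etfa, the alpha subunit, was at 48.2 FPKM with Ad-KLF14 and 70.1 FPKM with Ad-GFP (1.45-fold lower, interval 1.33 to 1.59). Etfb, the beta subunit, was at 55.9 FPKM with Ad-KLF14 and 48.5 FPKM with Ad-GFP (ratio 1.15, interval 1.01 to 1.31). The alpha subunit over the beta subunit was thus at 0.862 with Ad-KLF14 and 1.45 with Ad-GFP. Of the 50-base stretches of Etfb, 67.3% are also annotated in the overlapping gene Gm45233 of GENCODE M21, so the counting of Etfb could depend on the gene models used. Etfdh, the oxidoreductase, was at 55.9 FPKM with Ad-KLF14 and 47.8 FPKM with Ad-GFP (ratio 1.17, interval 1.08 to 1.26).

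Of the 6 peroxisomal enzymes none was 1.5-fold apart with the pseudocount, and their median log2 ratio was −0.03, with a standard deviation of 0.32. Acox2, the oxidase for branched chains and bile acid intermediates, was at 17.1 FPKM with Ad-KLF14 and 20.8 FPKM with Ad-GFP (1.22-fold lower, interval 1.08 to 1.38). Acox3, another branched-chain oxidase, was at 10.4 FPKM with Ad-KLF14 and 7.26 FPKM with Ad-GFP (1.43-fold higher, interval 1.30 to 1.59). The bifunctional enzymes Ehhadh and Hsd17b4 carry out the middle steps. Ehhadh was at 9.53 FPKM with Ad-KLF14 and 8.84 FPKM with Ad-GFP (ratio 1.08, interval 0.918 to 1.27). Hsd17b4 was at 35.3 FPKM with Ad-KLF14 and 38.6 FPKM with Ad-GFP (ratio 0.916, interval 0.810 to 1.04). Both intervals held 1, but with the reads of Hsd17b4 multiplied by 2 to reach the reference length its interval was 0.840 to 0.998, so that call is not secure. Of the peroxisomal thiolases, Acaa1a was at 22.9 FPKM with Ad-KLF14 and 31.7 FPKM with Ad-GFP (1.38-fold lower, interval 1.22 to 1.56). Acaa1b was at 7.31 FPKM with Ad-KLF14 and 6.94 FPKM with Ad-GFP (ratio 1.05, interval 0.822 to 1.35). The transcripts of these thiolases are near copies in part, with 34.0% of the 50-base stretches of Acaa1a found in Acaa1b, so the division of reads between them is uncertain.

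In ketone body metabolism the members went opposite ways. Acat1, the mitochondrial thiolase that joins acetyl-CoA units to acetoacetyl-CoA and also splits it, was at 42.4 FPKM with Ad-KLF14 and 21.4 FPKM with Ad-GFP, from at least 1595 reads with Ad-KLF14 and 818 with Ad-GFP (1.98-fold higher, interval 1.82 to 2.15). With the pseudocount it was 1.93-fold higher and so just under 2-fold. Bdh1, which interconverts acetoacetate and hydroxybutyrate, was low, at 1.61 FPKM with Ad-KLF14 and 2.55 FPKM with Ad-GFP (1.58-fold lower, interval 1.12 to 2.25).

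The remaining members are genes that PPARalpha is known to raise in mouse liver. Pdk4, the kinase that shuts pyruvate dehydrogenase and so spares glucose, was at 15.6 FPKM with Ad-KLF14 and 12.3 FPKM with Ad-GFP (1.27-fold higher, interval 1.12 to 1.43). Vnn1, which releases pantothenate for CoA, was at 8.17 FPKM with Ad-KLF14 and 13.8 FPKM with Ad-GFP (1.68-fold lower, interval 1.2 to 2.39). Acot2, the mitochondrial acyl-CoA thioesterase, was at 1.92 FPKM with Ad-KLF14 and 4.82 FPKM with Ad-GFP, from at least 47 reads with Ad-KLF14 and 120 with Ad-GFP (2.52-fold lower, interval 1.78 to 3.61). Its cytosolic near copy Acot1 was at 0.575 FPKM with Ad-KLF14 and 0.510 FPKM with Ad-GFP, from at least 10 reads with Ad-KLF14 and 9 with Ad-GFP (ratio 1.13, interval 0.412 to 3.13). A difference in Acot1 was not detectable at this depth. Of the 50-base stretches of Acot2, 24.5% also occur in Acot1, so the values of both are uncertain. Ppara and these targets thus did not share a direction.

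**Figure D4:**
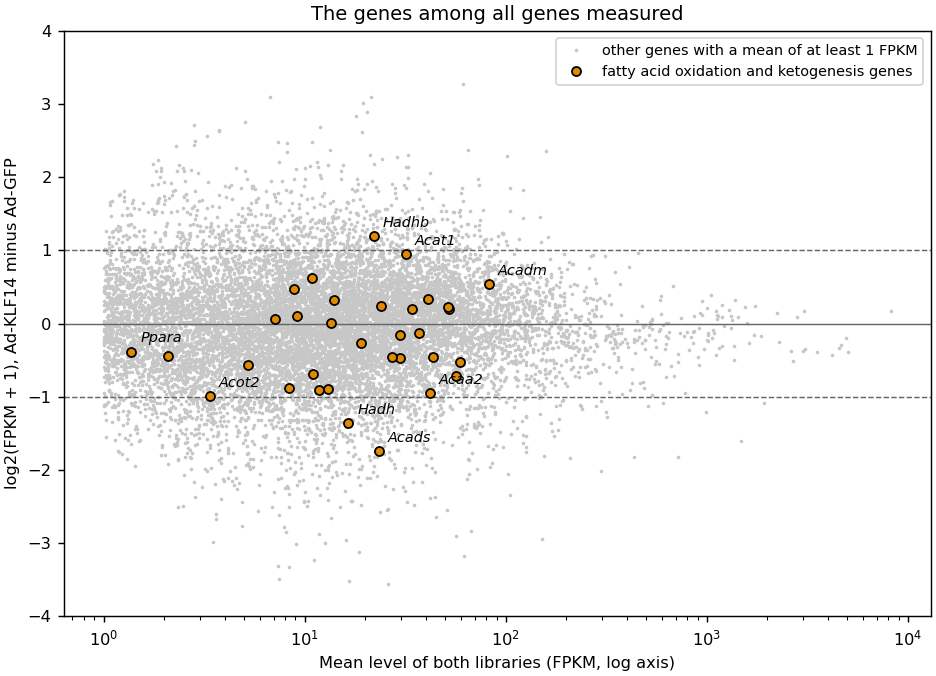
Difference of log2(FPKM + 1), Ad-KLF14 minus Ad-GFP, against the mean level of both libraries (log axis) for the kept genes, with the 33 members as filled circles and 2-fold marked by dashed lines. Hadhb lies above the upper line and Acads and Hadh below the lower one; Klf14 is left out and 1 other gene lies outside the axis.

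Genes of the pathway outside this set were described from lists. Other mitochondrial acyl-CoA oxidation had 20 kept genes. Of these 1 passed 2-fold upward and 1 downward, beside 6.37% and 8.99% of all genes. The median log2 ratio of the 20 was −0.004, beside −0.03 over all genes. Under each of the 3 scalings of the libraries 2 passed upward, and 3 with a pseudocount of 0.1 FPKM. With a pseudocount of 5 FPKM 0 passed downward. Acad11, an acyl-CoA dehydrogenase, was at 45.2 FPKM with Ad-KLF14 and 19.4 FPKM with Ad-GFP (2.33-fold higher, interval 2.13 to 2.54). Mcee, the epimerase on the route of propionyl-CoA into the citric acid cycle, was at 5.80 FPKM with Ad-KLF14 and 16.1 FPKM with Ad-GFP (2.78-fold lower, interval 1.97 to 4.0). Hsd17b10 had the highest mean of the list, at 49.5 FPKM with Ad-KLF14 and 71.2 FPKM with Ad-GFP.

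Further genes of ketone bodies had 8 kept, and their median was 0.09. Of these 1 passed 2-fold upward and 0 downward, beside 6.37% and 8.99% of all genes. The gene at least 2-fold higher was Oxct1, which activates acetoacetate for use as fuel and is known to be kept low in hepatocytes, at 13.9 FPKM with Ad-KLF14 and 4.44 FPKM with Ad-GFP (3.12-fold, interval 2.62 to 3.72). The monocarboxylate and ketone body carrier Slc16a1 had the highest mean, at 64.5 FPKM with Ad-KLF14 and 34.7 FPKM with Ad-GFP. With a pseudocount of 5 FPKM 0 genes of the list passed 2-fold upward, and with 0.1 FPKM 1 passed downward.

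Other known PPARalpha targets of liver also went both ways. Of 23 in the list 15 were kept, and their median was 0.28. Of these 2 passed 2-fold upward and 1 downward, beside 6.37% and 8.99% of all genes. With a pseudocount of 5 FPKM the counts were 1 and 0, and with 0.1 FPKM they were 3 and 3. Pex11a, which acts in the division of peroxisomes, was at 25.8 FPKM with Ad-KLF14 and 9.66 FPKM with Ad-GFP (2.67-fold higher, interval 2.11 to 3.42). Acot4, a peroxisomal thioesterase, was at 3.74 FPKM with Ad-KLF14 and 1.37 FPKM with Ad-GFP (2.73-fold higher, interval 1.85 to 4.13). Slc27a1, a fatty acid transport protein, was at 4.27 FPKM with Ad-KLF14 and 10.9 FPKM with Ad-GFP (2.55-fold lower, interval 2.08 to 3.14). The lipid droplet coat gene Plin2 had the highest mean, at 431 FPKM with Ad-KLF14 and 550.5 FPKM with Ad-GFP.

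Among regulators of the pathway, 4 of 31 kept genes passed 2-fold upward and 0 downward, and their median was 0.14. Over all genes 6.37% passed upward and 8.99% downward. The difference from these shares was not tested. Pparg, a receptor related to PPARalpha that is known to favour fat storage, was at 11.5 FPKM with Ad-KLF14 and 2.76 FPKM with Ad-GFP (4.16-fold higher, interval 3.11 to 5.65). The deacetylase gene Sirt1 was at 45.3 FPKM with Ad-KLF14 and 16.6 FPKM with Ad-GFP (2.72-fold higher, interval 2.50 to 2.97). Lpin1, a phosphatidate phosphatase that also acts as a coactivator of PPARalpha, was at 33.1 FPKM with Ad-KLF14 and 12.6 FPKM with Ad-GFP (2.62-fold higher, interval 2.33 to 2.94). The coactivator gene Ppargc1a was at 2.58 FPKM with Ad-KLF14 and 0.558 FPKM with Ad-GFP (4.63-fold higher, interval 3.28 to 6.66). The partner receptor Rxra was at 31.3 FPKM with Ad-KLF14 and 28.3 FPKM with Ad-GFP (ratio 1.11, interval 1.03 to 1.18). Prkag1, a subunit of AMP-activated protein kinase, had the highest mean of the list, at 103 FPKM with Ad-KLF14 and 59.3 FPKM with Ad-GFP. The one-sided count depends on the pseudocount. Sirt5, a mitochondrial deacylase chosen after its values were seen, was at 1.51 FPKM with Ad-KLF14 and 3.94 FPKM with Ad-GFP (2.61-fold lower, interval 1.59 to 4.43), and 1 regulator passed 2-fold downward with a pseudocount of 0.1 FPKM.

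**Figure D5:**
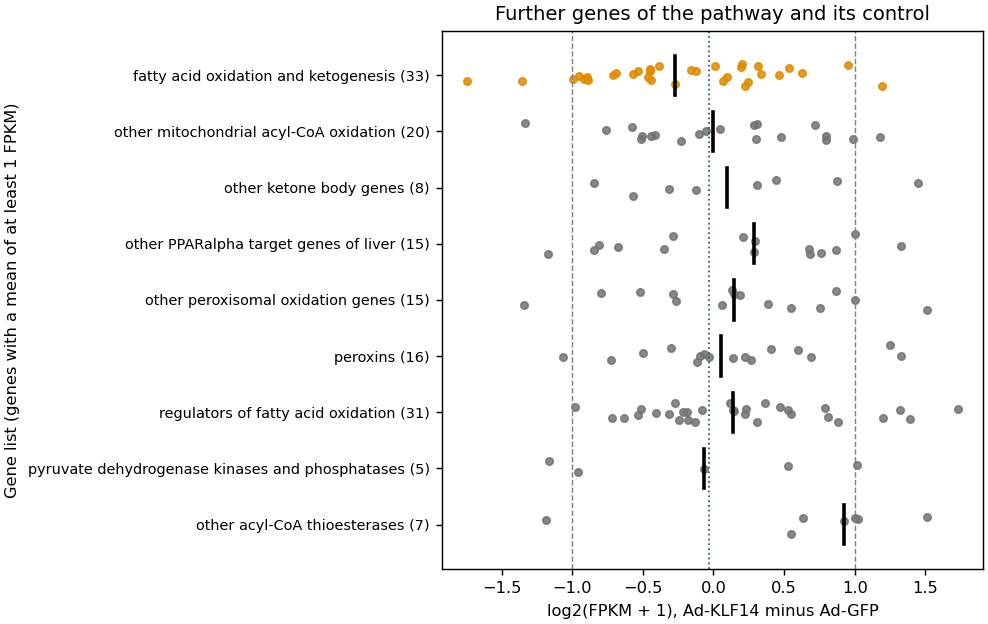
Difference of log2(FPKM + 1), Ad-KLF14 minus Ad-GFP, of each kept gene in the 34-gene set (top, 33 genes) and in 8 further lists, with the median of each list as a black bar, 2-fold as dashed lines and the median of all genes as a dotted line. The median of the top row is −0.27 and the others lie between −0.07 and 0.93.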

How the data were processed

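Per the labels' protocols, Trizol served for RNA extraction and a TruSeq RNA kit for the libraries. The authors deposited 1 table of FPKM values per library. Alignment tool and build were Bowtie 0.12.2 and mm8, per the submitters' processing notes. Which gene models and counting rule were used, and how reads matching several places were treated, is not given in the sources used here. The design text speaks of retinal profiles in triplicate and so may describe another study in part, and whether a table pools cultures is not stated.

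The ratio of both libraries was a ratio of whole numbers times 1 constant in all 16944 genes above 0 in both (relative tolerance 1e-11). The totals are the pair of whole numbers that gives this constant, times a whole factor of 9, under which 35.9% of gene lengths lay within 2% of a GENCODE transcript with a RefSeq entry, against 4.26% for the next best factor. A gene's reads are the smallest numbers for which its length is whole too, so they are lower limits unless reads were split between places. The procedure was checked on simulated data whose gene lengths were those of reference transcripts where these exist. That check therefore does not cover gene models that differ from the reference.

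Ratios, a pseudocount of 1 FPKM, a filter at a mean of 1 FPKM and a 2-fold limit were used as described with the results, in Python 3.11.15 with scipy 1.17.1. Shared sequence was counted over stretches of 50 bases on both strands of all GENCODE M21 transcripts. Reference coordinates and sequences are those of GRCm38 and not of mm8. Named genes are all members and, of each further list, the kept genes at least 2-fold apart (at most 4) and the gene with the highest mean, Klf14, Ppargc1a, Rxra and Alb, and the highest gene of each marker list. The members, the lists and the enzyme pairs were chosen with earlier results of these data known. Alternatives were 3 scalings of the libraries, a running median removed along expression, pseudocounts of 0.1 and 5 FPKM, no filter or one at 5 FPKM, a 1.5-fold limit, leaving out the Dci row, and reads multiplied to reach the reference length. Some genes of the pathway are not reported here.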

Additional observations from a re-analysis of the deposited data

How the results depend on the processing

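No paired analysis was possible because each group holds 1 library. All 34 members kept the sign of their log2 ratio under the 3 scalings and both other pseudocounts, and the 33 kept members did so with the running median removed. Under these 6 settings the log2 ratio of Hadhb ran from 1.00 to 1.25, that of Acads from −1.83 to −1.45 and that of Hadh from −1.44 to −1.08. The members at least 2-fold lower numbered 3 with a pseudocount of 0.1 FPKM, where Acot2 joined at −1.29, and 3 with the running median removed, where Acaa2 joined at −1.02. The median of the members ran from −0.33 without the Dci row, an alternative chosen after seeing the data, to −0.14 with a filter at 5 FPKM. With a 1.5-fold limit 3 members were higher and 9 lower, and over all genes 2079 were higher and 2598 lower, in place of 791 and 1117. With a pseudocount of 5 FPKM 295 genes were at least 2-fold higher and 467 lower. The median over all genes, −0.03, was 0.00619 with a trimmed mean of log ratios, 0.00602 with the upper quartile, −0.00314 without Klf14 reads in the total, 0.00113 without a filter and 0 with the running median removed. With the reads of Cpt2, Acadsb, Vnn1 and Hsd17b4 multiplied to the reference length, an alternative also chosen after seeing the data, 4 in place of 5 kept members had an interval that held 1. Acot1, with 10 reads with Ad-KLF14 and 9 with Ad-GFP, is the member that depth limits most.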

Other observations

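Further groups next to the pathway held genes at least 2-fold apart. Of 7 kept acyl-CoA thioesterases outside the members, which release free fatty acids from CoA, 3 passed 2-fold upward with Ad-KLF14 and 1 downward. The median log2 ratio of the 7 was 0.93. Over all genes 6.37% passed upward and 8.99% downward, and the difference from these shares was not tested. Acot8 of the peroxisome was at 33.8 FPKM with Ad-KLF14 and 11.2 FPKM with Ad-GFP (3.02-fold higher, counting interval 2.49 to 3.66). Acot7 was at 79.2 FPKM with Ad-KLF14 and 38.4 FPKM with Ad-GFP (2.06-fold higher, interval 1.88 to 2.27). The mitochondrial Acot9 went the other way, at 27.7 FPKM with Ad-KLF14 and 64.3 FPKM with Ad-GFP (2.32-fold lower, interval 1.99 to 2.71). With a pseudocount of 5 FPKM, 1 of the 7 was at least 2-fold higher. Acot13 had the highest mean, at 91.0 FPKM with Ad-KLF14 and 58.3 FPKM with Ad-GFP.

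Of 16 peroxins, the proteins that build peroxisomes, 2 passed 2-fold upward and 1 downward, and their median was 0.05. Over all genes the shares were 6.37% and 8.99%, here and for the lists below. Besides Pex11a, Pex16 was at 31.2 FPKM with Ad-KLF14 and 12.5 FPKM with Ad-GFP (2.49-fold higher, interval 2.12 to 2.95). Pex7, the import receptor for thiolase, was at 6.30 FPKM with Ad-KLF14 and 14.3 FPKM with Ad-GFP (2.27-fold lower, interval 1.84 to 2.80). Pex14 had the highest mean, at 41.5 FPKM with Ad-KLF14 and 43.6 FPKM with Ad-GFP. With a pseudocount of 5 FPKM or the running median removed, 0 peroxins passed 2-fold downward. Of 15 kept further enzymes and carriers of peroxisomal oxidation, Acot4 and Acot8 passed 2-fold upward and 1 gene downward, and their median was 0.14. The lower gene was the fatty acyl-CoA carrier Abcd3, at 12.3 FPKM with Ad-KLF14 and 32.6 FPKM with Ad-GFP (2.66-fold lower, interval 2.39 to 2.96). Catalase, Cat, had the highest mean, at 289 FPKM with Ad-KLF14 and 263 FPKM with Ad-GFP. With a pseudocount of 5 FPKM 1 gene of the list passed 2-fold upward, and with 0.1 FPKM 2 passed downward. Among the 5 other kinases and phosphatases of pyruvate dehydrogenase the median was −0.07. Pdk1 was at 2.51 FPKM with Ad-KLF14 and 6.87 FPKM with Ad-GFP (2.73-fold lower, interval 2.25 to 3.33). The phosphatase gene Pdp2 was at 5.82 FPKM with Ad-KLF14 and 2.38 FPKM with Ad-GFP (2.45-fold higher, interval 1.92 to 3.15). With a pseudocount of 5 FPKM 0 passed 2-fold in either direction. Other genes of both kinds, chosen after values were seen, went the opposite way. Pdp1 was at 1.17 FPKM with Ad-KLF14 and 3.22 FPKM with Ad-GFP (2.76-fold lower, interval 2.02 to 3.83), under 2-fold with the pseudocount of 1 FPKM. Pdk3 was at 5.16 FPKM with Ad-KLF14 and 3.27 FPKM with Ad-GFP (ratio 1.58, interval 1.17 to 2.14). Pdk2 had the highest mean, at 4.91 FPKM with Ad-KLF14 and 5.2 FPKM with Ad-GFP.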
